A study of Mus musculus with 18 samples.

Results

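Mouse intestinal organoids were compared on days 1, 2 and 3 of growth with both ends of the same time course, day 0 and day 5, to find genes that went up and returned or fell and recovered. The comparison used 15 of the 18 libraries, chosen by day alone: the 9 libraries of days 1 to 3, which are called the middle here, and the 6 end libraries, with 3 at each day. For each gene the contrast was the mean of the 3 middle day means minus the mean of the day 0 and day 5 means, and each end was then tested separately, because a gene can pass the mean contrast on 1 end alone. Organoids are epithelial structures grown from intestinal stem and progenitor cells.

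All libraries came from C57BL/6 wild-type organoids of 8-week-old animals, and the sample titles name 3 organoid lines, mouse 1, 2 and 3. Each library pooled 30 wells. At days 1 and 2, replicates 1 and 2 both carry the name mouse 1. According to the sample characteristics, replicate 1 of every day was prepared without DNase and the other 2 replicates with it, while the extraction protocol names days 0 and 5. Lines had been maintained in IntestiCult medium. From day 0 to day 1 the medium was ENR, which contains EGF, Noggin and R-spondin, with 20% Wnt3a-conditioned medium, the ROCK inhibitor Y-27632 at 10 µM and the GSK3 inhibitor CHIR99021 at 3 µM. From day 1 to day 3 it was ENR with Wnt3a-conditioned medium and Y-27632 only, and from day 3 on it was ENR alone. The libraries of days 1, 2 and 3 therefore follow culture in added Wnt3a and ROCK inhibitor, while day 5 follows ENR alone, so the effect of the day and that of the medium cannot be told apart.

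Crypt cells that are taken apart or injured can leave their usual identities for a time. In mouse intestine this regenerative state is known for genes of the fetal epithelium, for activity of YAP, a co-activator that works with TEAD factors when cells spread and divide, and for loss of the Lgr5+ stem cell program. Organoids then bud, re-form Paneth cells, which feed and defend the crypt, and resume making goblet, enteroendocrine and absorptive cells. A transient gene by the measure used here is one that stood apart from both the starting and the final organoids.

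The implied depth of the 15 libraries, recovered from steps in the low values, was 43010000 to 53930000 reads, and 10140 to 10758 genes reached 1 RPKM, a unit of reads per kilobase of gene that is scaled to the size of the library. The tissue label was checked against 11 genes of intestinal epithelium, all of which were measured at high levels. Epcam, an adhesion molecule of epithelia, was at 505, 401 and 421 RPKM at day 0, 349.9 to 490.4 RPKM (median 424) in the middle and 448, 428 and 387 at day 5. Vil1 was at 152 RPKM or more and Hnf4a at 148 or more in each of the 15 libraries. Among genes of other cells, Ptprc reached at most 0.0061 RPKM, Col1a1 0.0261 and Pecam1 0.206, and Dcn, Lum, Cd3g, Cd8a and Emcn were at 0 in all 15. The summed RPKM of the 15 mesenchymal markers was 1.75 to 6.67 at day 0, 0.747 to 2.55 in the middle and 2.01 to 3.68 at day 5, and that of the 16 immune markers was 3.23 to 4.54, 1.35 to 3.02 and 1.24 to 2.52. Of these markers only Vim and Cd68 were high enough to be tested, and both were lower than day 0 (differences -0.82 ± 0.26 and -0.91 ± 0.23, adjusted p = 0.0311 and 0.0107) with no call against day 5 (adjusted p = 0.0538 and 0.18). Vim was called against both ends in 6 of 30 other settings, among them the mouse as a factor and median-of-ratios rescaling. The summed RPKM of the 10 endothelial and red blood cell markers in the table was at most 0.419.

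Promoter windows of 4 genes that the results turn on are shown first, 1 from the gene that rose most and 3 from genes of the response to low oxygen that fell. They are RefSeq sequences of GRCm38.p6 (mm10), 300 bases each, from 250 bases before the start of transcription to 50 bases into the transcript. Capitals mark the core that the aryl hydrocarbon receptor binds (GCGTG) in Cyp1a1. In the other 3 they mark a form of the core that hypoxia-inducible factors bind, ACGTG on either strand (CACGT when read on the other strand). GCGTG also occurs in those 3 windows and is not marked there.
Cyp1a1: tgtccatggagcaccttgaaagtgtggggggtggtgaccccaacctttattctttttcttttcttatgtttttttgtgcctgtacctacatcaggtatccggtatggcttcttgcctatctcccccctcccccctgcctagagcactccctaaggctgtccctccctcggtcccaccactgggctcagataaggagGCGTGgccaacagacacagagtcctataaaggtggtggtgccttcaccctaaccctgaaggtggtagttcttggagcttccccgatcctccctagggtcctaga
Bnip3: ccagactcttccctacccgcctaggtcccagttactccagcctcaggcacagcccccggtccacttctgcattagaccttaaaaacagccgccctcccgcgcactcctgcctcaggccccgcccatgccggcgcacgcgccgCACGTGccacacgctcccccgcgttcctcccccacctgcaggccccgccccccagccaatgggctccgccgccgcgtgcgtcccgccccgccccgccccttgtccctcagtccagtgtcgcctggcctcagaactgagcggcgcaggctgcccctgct
Ankrd37: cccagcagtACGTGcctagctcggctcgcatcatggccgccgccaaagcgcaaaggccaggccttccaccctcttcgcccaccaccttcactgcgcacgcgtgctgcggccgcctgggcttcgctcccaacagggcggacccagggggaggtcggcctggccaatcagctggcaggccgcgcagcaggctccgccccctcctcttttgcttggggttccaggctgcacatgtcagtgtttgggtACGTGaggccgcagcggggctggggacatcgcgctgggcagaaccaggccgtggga
P4ha1: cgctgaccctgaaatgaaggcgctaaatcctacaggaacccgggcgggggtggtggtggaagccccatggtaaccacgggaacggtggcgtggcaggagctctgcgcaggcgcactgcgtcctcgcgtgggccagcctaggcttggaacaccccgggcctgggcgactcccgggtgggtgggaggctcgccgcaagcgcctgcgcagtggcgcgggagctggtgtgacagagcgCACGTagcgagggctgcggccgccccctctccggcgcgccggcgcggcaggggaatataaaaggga
The Cyp1a1 window (chr9:57697363-57697662, + strand) holds GCGTG once, starting 54 bases before the start site. In the Bnip3 window (chr7:138909457-138909756, - strand) the letters CACGTG hold the core on both strands, starting 108 and 107 bases before the start. The Ankrd37 window (chr8:45999801-46000100, - strand) holds ACGTG at 241 and 6 bases before the start, and the P4ha1 window (chr10:59323046-59323345, + strand) holds it on the reverse strand at 16 bases before the start. Such short cores are common, and a match is a description of the letters only. ACGTG on either strand was in 26.1% of 11193 windows, which cover 8795 of the 11065 genes tested, and GCGTG in 51.5%; the motifs can overlap in part. In the 657 windows of 543 of the 671 genes that rose and returned, ACGTG was in 24.8%, GCGTG in 51.9% and the AP-1 motif TGANTCA in 5.78%. In the 428 windows of 322 of the 396 genes that fell and recovered, the shares were 27.8%, 45.1% and 6.07%, and TGANTCA was in 5.11% of all windows. The TEAD motif GGAATG was in 12.1% of all windows, 11% of those of rising and 17.1% of those of falling genes.

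Each gene was tested with limma on log2(RPKM + 1), and a gene was called when its p adjusted over all 11065 genes was under 0.05. By the mean contrast 2195 genes were higher in the middle (19.8% of those tested) and 1451 were lower (13.1%). Against day 0 alone 1636 were higher (14.8%) and 1562 lower (14.1%), and against day 5 alone 2584 were higher (23.4%) and 1393 lower (12.6%). Genes called against both ends in the same direction numbered 671 higher (6.06%), the genes that rose and returned, and 396 lower (3.58%), those that fell and recovered. Both end contrasts use the same 9 middle libraries, so the overlap of their calls has no test. Of the 2195 genes higher by the mean contrast, 513 passed against day 0 only, 904 against day 5 only and 107 against neither end. Of the 1451 lower ones, 533 passed against day 0 only, 470 against day 5 only and 52 against neither. In all, 125 genes were called higher than day 0 and lower than day 5, and 57 the reverse, so these moved in 1 direction across the course. Among genes passing the mean contrast, 6 of the 2195 and 1 of the 1451 were called in the opposite direction at 1 end.

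**Figure D1:**
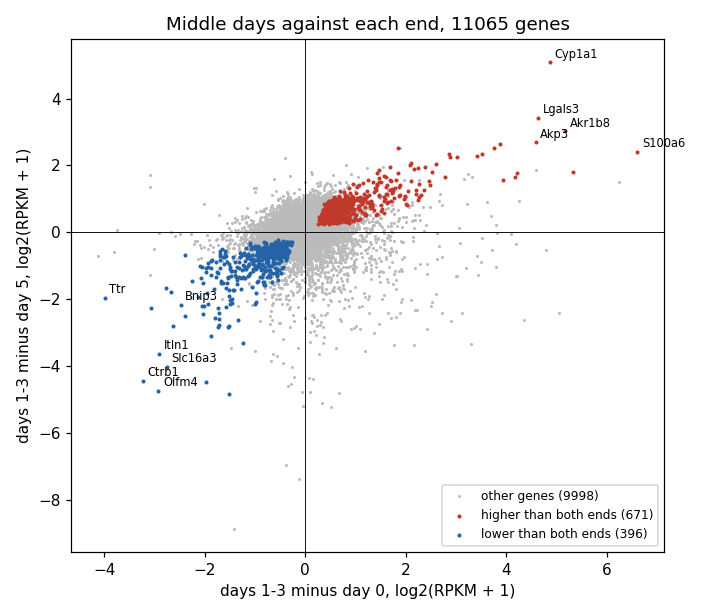
Difference of the middle days from day 0 (x axis) and from day 5 (y axis) for 11065 genes, both on the log2(RPKM + 1) scale; red points are the 671 genes called higher than both ends and blue points the 396 called lower. Cyp1a1 lies farthest toward the upper right along both axes together, with differences of 4.87 and 5.09.

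Most changes were of modest size. Among the 671 genes that rose and returned, the median difference was 0.61 from day 0 and 0.63 from day 5 on the log2(RPKM + 1) scale, and the smaller of the 2 differences was at least 1 in 89 genes and at least 2 in 15. Among the 396 genes that fell and recovered the medians were -0.82 and -0.73, with a smaller difference of at least 1 in 91 and of at least 2 in 11. All 9 middle values lay above all 6 end values in 333 of the 671, against 377 of all genes tested (3.41%). They lay below them in 200 of the 396, against 214 of all genes (1.93%). The calls rest on these same values, so nothing is read from the lack of overlap. No call was made between day 5 and day 0 for 618 of the 671 and for 332 of the 396, beside 12.7% of all genes called higher at day 5 and 18.3% lower. These genes were chosen for differing from both ends in 1 direction, which favours ends that lie near each other, so nothing is read from that contrast. With array weights, which called 1879 genes higher and 1173 lower than both ends, day 5 exceeded day 0 by the test in 713 of them and was below it in 894.

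The change was usually greatest early. Day 1 held the highest day mean for 475 of the 671 rising genes, day 2 for 144 and day 3 for 52, and the lowest mean of the 396 falling genes came on day 1 in 276 cases, on day 2 in 86 and on day 3 in 34. Measured from the mean of the end libraries, the median rising gene stood 0.69 to 0.76 higher in the 3 libraries of day 1, 0.47 to 0.74 higher at day 2 and 0.31, 0.66 and 0.56 higher in replicates 1, 2 and 3 of day 3. Day 3 replicate 1 was the middle library nearest to the ends for 433 of the 671 rising genes and 177 of the 396 falling ones. Day 4, which entered no test, lay between the middle and day 5 for 625 rising and 360 falling genes. Its 3 libraries were spread, with median differences of -0.09, 0.2 and 0.45 for the rising genes.

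**Figure D2:**
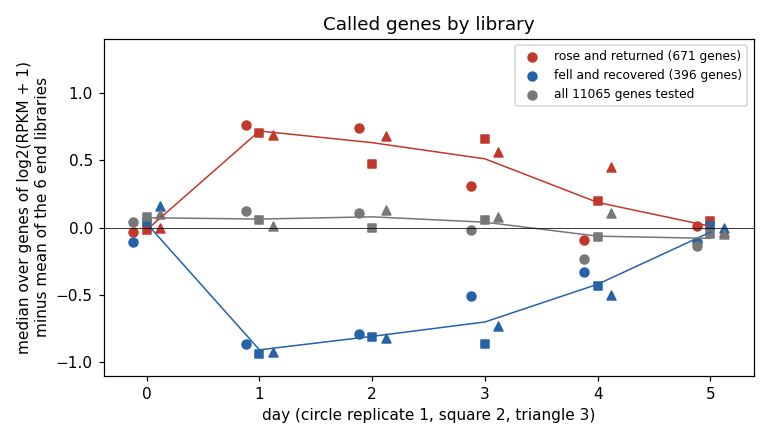
Median over genes of log2(RPKM + 1) minus the mean of the 6 end libraries (y axis) by day (x axis) for the genes that rose and returned, the genes that fell and recovered and all genes tested; each symbol is 1 library, shaped by replicate, and lines join the means of 3 libraries. Rising genes stand at 0.69 to 0.76 on day 1 and falling genes at -0.86 to -0.94, and both are closest to 0 in replicate 1 on day 3.

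The counts depended on single libraries at the ends. The number that rose and returned was 394 when replicate 3 of day 5 was left out, 423 when replicate 2 of day 0 was and 430 when replicate 3 of day 0 was. The number that fell and recovered was 243, 292 and 262 in that order, and 252 when replicate 2 of day 5 was left out. With day 3 alone as the middle, only 74 rose and 89 fell, and with days 2 and 3 alone, 410 rose and 251 fell. The split between the directions depended on scaling, since genes that rose made up 62.9% of the 1067 calls as deposited, 57.0% when libraries were rescaled by their median ratio and 52.4% when their quantiles were made equal. Against day 5 the share of higher calls was 65.0% as deposited and 49.0% after median-of-ratios rescaling, and the median over all genes moved from 0.15 to 0.04.

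The 12 genes that rose and returned most include enzymes of xenobiotic and lipid metabolism, a brush border phosphatase and an actin-severing protein. These 12 are the largest by the smaller of the 2 differences, among 299 genes whose 9 middle values all lay above the 6 end values and whose middle mean reached 5 RPKM. The lack of overlap was thus a condition of the choice and is no finding about any 1 of them. Cyp1a1 led them. It encodes a cytochrome P450 that oxidises aromatic hydrocarbons and is the classic target of the aryl hydrocarbon receptor. It was at 0.581, 1.84 and 0.578 RPKM at day 0, at 5.72 to 194 RPKM (median 56.5) in the middle and at 0.995, 0.592 and 0.42 at day 5. Its middle level was higher by 4.87 ± 0.57 (SE) than day 0 (adjusted p = 7.82e-05) and by 5.09 ± 0.57 than day 5 (adjusted p = 9.43e-05). Day means were 142 ± 59 RPKM at day 1 (SD, n = 3), 56.7 ± 34.9 at day 2 and 36.6 ± 27.1 at day 3, and the day 4 libraries were at 1.21, 13 and 6.19 RPKM.

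Cyp1a1 was the only 1 of the 6 tested genes of the aryl hydrocarbon receptor list to be called against both ends (16.7%, against 6.06% of all genes). Of the 6, 2 were higher and 1 lower than day 0, beside 14.8% and 14.1% of all genes. Against day 5, 1 was higher and 1 lower, beside 23.4% and 12.6%. Ahr, the receptor itself, was at 5.05, 4.35 and 3.13 RPKM at day 0, 3.99 to 5.59 RPKM (median 4.75) in the middle and 3.66, 4.27 and 4.2 at day 5, with differences of 0.18 ± 0.13 and 0.20 ± 0.13 (adjusted p = 0.3 and 0.218). Tiparp, another target of the receptor, was not higher: its differences were -0.31 ± 0.15 from day 0 (adjusted p = 0.139) and -0.66 ± 0.15 from day 5 (adjusted p = 0.0061). Ahr and Tiparp were chosen for mention after their values were seen. The genes whose day means over the 5 days were most like those of Cyp1a1 were Ppil3 (Pearson r = 0.9998), Slirp (0.9997), Adrm1 and Ttll12 (both 0.9992) and Got1 (0.9991). With 5 points for each gene, and 11065 genes to pick from, these values describe a shape only.

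Lgals3, which encodes galectin-3, a lectin that binds cell surface sugars, was at 32.5, 3.93 and 4.86 RPKM at day 0, 56.7 to 740.2 RPKM (median 268) in the middle and 18.5, 43.5 and 12.8 at day 5. Day 3 replicate 1 of Lgals3, at 56.7 RPKM, came near the highest end library. Its differences were 4.63 ± 0.78 from day 0 (adjusted p = 0.000889) and 3.42 ± 0.78 from day 5 (adjusted p = 0.00583). Akr1b8, an aldo-keto reductase that clears reactive aldehydes, was at 10.2, 1 and 1.52 RPKM at day 0, 89.8 to 234 RPKM (median 132) in the middle and 10.4, 31 and 12.9 at day 5. It had not fully returned: day 5 was higher than day 0 by 2.16 ± 0.58 (adjusted p = 0.0156), while the middle was above day 5 by 3.01 ± 0.48 (adjusted p = 0.000957). Akp3, an alkaline phosphatase of the intestinal brush border, was at 14.6, 71.4 and 13.1 RPKM at day 0, 229 to 1176 RPKM (median 579.9) in the middle and 172, 109 and 42.4 at day 5.

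Several of these genes act on lipids and steroids. Sptssb, a small subunit of the enzyme that starts sphingolipid synthesis, was at 0.554, 0.209 and 0.11 RPKM at day 0, 7.78 to 50.1 RPKM (median 17.9) in the middle and 1.6, 4.16 and 0.974 at day 5. Mboat1, a lysophospholipid acyltransferase, was higher than day 0 by 3.76 ± 0.48 and than day 5 by 2.51 ± 0.48, with a middle range of 16.2 to 67.2 RPKM (median 52.1). Hsd17b2, which inactivates sex steroids, had differences of 2.60 ± 0.35 and 2.04 ± 0.35. Pgap1, which remodels GPI anchors, had the smallest errors of the 12, at 1.88 ± 0.19 from day 0 (adjusted p = 3.1e-05) and 1.43 ± 0.19 from day 5 (adjusted p = 0.000391).

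Fkbp5, a co-chaperone of the glucocorticoid receptor that glucocorticoids induce, had its highest day mean at day 3. Its libraries were at 22.6, 7.54 and 4.64 RPKM at day 0, 24 to 58 RPKM (median 34.6) in the middle and 8.73, 3.65 and 5.18 at day 5, and day means were 31.4 ± 5.4 at day 1, 36.6 ± 18.6 at day 2 and 46 ± 6.13 at day 3 (SD, n = 3). Day 0 replicate 1, at 22.6 RPKM, nearly reached the lowest middle library. Ildr1, a protein of tricellular junctions, was at 3.17 to 29.9 RPKM (median 14) in the middle against at most 3.03 RPKM in the end libraries, so that its lowest middle library hardly cleared them. Gsn, which encodes gelsolin, an actin-severing protein, had differences of 2.78 ± 0.34 and 1.65 ± 0.34, and Ldhd, the mitochondrial D-lactate dehydrogenase, of 1.81 ± 0.32 and 1.55 ± 0.32. All 12 stayed called against both ends when any 1 library was left out.

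**Figure D3:**
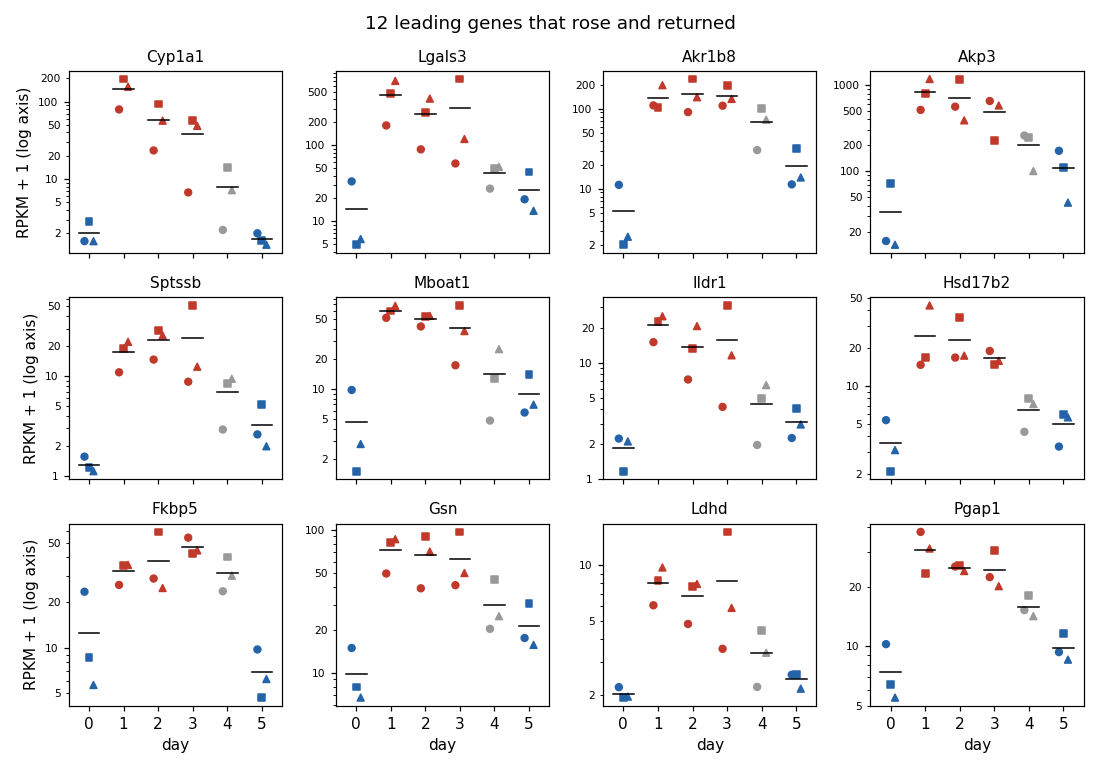
RPKM + 1 on a log axis (y axis) by day (x axis) for the 12 genes that rose and returned most; each symbol is 1 library, shaped by replicate (circle 1, square 2, triangle 3), with middle days in red, ends in blue and day 4, which was not tested, in grey, and bars are the mean RPKM of 3 libraries plus 1. Cyp1a1 falls from a day 1 mean of 142 RPKM to 36.6 at day 3, whereas Fkbp5 is highest at day 3.

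Genes of fetal or regenerating epithelium rose from day 0, and some of them were lower again at day 5, though not always back at the day 0 level. Of 23 tested, 15 were higher than day 0, 6 were higher and 1 lower than day 5, and 5 rose and returned (Anxa10, Krt7, Tnfrsf12a, Ecm1 and S100a6), with none falling. Of all genes, 14.8% were higher than day 0, 23.4% were higher than day 5 and 6.06% rose and returned, so that the number higher than day 5 was close to that of genes at large. The list median was 1.65 from day 0 and 1.08 from day 5, against 0.00 and 0.15 over all genes. S100a6, a small calcium-binding protein, was at 30.2, 2.31 and 3.09 RPKM at day 0, 235 to 1177 RPKM (median 1094) in the middle and 75.7, 369 and 92 at day 5. The middle and day 5 overlapped, since day 5 replicate 2 exceeded the lowest middle library. Every day 5 library of S100a6 was still above its highest day 0 library, so its return was partial. Its differences were 6.60 ± 0.70 from day 0 (adjusted p = 3.78e-05) and 2.40 ± 0.70 from day 5 (adjusted p = 0.0189).

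Tnfrsf12a, the receptor for the cytokine TWEAK, was at 45.4, 20.8 and 29.7 RPKM at day 0, 30.4 to 169.6 RPKM (median 103) in the middle and 23, 40.3 and 21.3 at day 5, with differences of 1.47 ± 0.33 and 1.63 ± 0.33 (adjusted p = 0.00533 and 0.00329). Krt7, a keratin of simple ducts, had differences of 3.94 ± 0.49 and 1.57 ± 0.49 (adjusted p = 0.000114 and 0.0242). Anxa10, an annexin, had differences of 5.32 ± 0.52 and 1.80 ± 0.52 (adjusted p = 2.02e-05 and 0.0172). For Krt7 and Anxa10 the larger difference was from day 0, so at day 5 they had come only part of the way back. A pair of well-known markers of the state were higher than day 0 with no call against day 5. Ly6a, which encodes Sca-1, was higher than day 0 by 4.59 ± 0.79 (adjusted p = 0.00108) and stood 1.86 ± 0.79 above day 5 (adjusted p = 0.0805). Clu, the gene of the secreted chaperone clusterin, was higher than day 0 by 3.79 ± 0.83 (adjusted p = 0.00453) and stood at -1.05 ± 0.83 from day 5 (adjusted p = 0.329). Ly6a and Clu were chosen for mention after their values were seen.

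Most of these returns depended on single day 5 libraries. Without day 5 replicate 1 or day 5 replicate 3, only 1 of the 23 stayed called against both ends, and Tnfrsf12a was called whichever 1 library was left out. Adjusted p against day 5 became 0.105 and 0.0824 for S100a6, 0.0586 and 0.102 for Anxa10, and 0.122 and 0.0849 for Krt7 in that order. Ecm1, an extracellular matrix protein, lost its call without day 0 replicate 1 (adjusted p = 0.119 against day 0) and in most other settings. The list count was 11 without day 3 replicate 1, 8 with the replicate number as a block and 11 with the mouse as a factor.

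Among 10 tested S100 genes, 9 were higher than day 0 (against 14.8% of all genes) and 3 rose and returned (30%, against 6.06%), with none lower than either end. S100a10, the partner of annexin A2, was at 288, 148 and 153 RPKM at day 0, 380.1 to 899 RPKM (median 621) in the middle and 262, 328 and 216 at day 5, with no overlap of the groups. Its differences were 1.74 ± 0.23 (adjusted p = 0.000206) and 1.24 ± 0.23 (adjusted p = 0.00238). S100a11 was at 25.2, 10.2 and 10.6 RPKM at day 0, 117 to 437 RPKM (median 289) in the middle and 84.4, 143 and 51.6 at day 5. It was above day 0 by 4.18 ± 0.38 and above day 5 by 1.66 ± 0.38 (adjusted p = 1.67e-05 and 0.0065), and day 5 was above day 0 by 2.52 ± 0.47 (adjusted p = 0.00261). Of 12 annexins, which bind membranes in the presence of calcium, 10 were higher than day 0 and 5 rose and returned (Anxa2, Anxa4, Anxa5, Anxa7 and Anxa10), or 41.7% beside the same 6.06%. That number was 1 after median-of-ratios rescaling, and 0 without day 5 replicate 1 or without day 5 replicate 3.

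Of the keratins of simple epithelium, Krt8 and Krt19 rose and returned. Krt8 was at 732, 291 and 287 RPKM at day 0, 643 to 1846 RPKM (median 1363) in the middle and 414, 548 and 421 at day 5, with differences of 1.63 ± 0.32 and 1.42 ± 0.32 (adjusted p = 0.00224 and 0.00539). Day 0 replicate 1 of Krt8 lay above its lowest middle library. Krt19 was at 879, 573 and 534 RPKM at day 0, 1251 to 2612 RPKM (median 2135) in the middle and 845, 1146 and 969.9 at day 5, and the groups did not overlap. Its differences were 1.59 ± 0.25 and 0.99 ± 0.25, and the adjusted p against day 5 of 0.00902 became 0.0519 without day 5 replicate 1. These 2 were the only ones of the 11 epithelial identity genes called against both ends (18.2%, against 6.06% of all genes). Krt18, the partner of Krt8, differed by 1.06 ± 0.42 from day 0 (adjusted p = 0.0729) and 1.66 ± 0.42 from day 5 (adjusted p = 0.00942).

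Of 28 tested actin and contractility genes, 5 rose and returned (Tpm1, Tpm3, Tagln2, Pfn1 and Vasp) and 1 fell and recovered (Cnn3), with list medians of 0.29 and 0.31. The shares were 17.9% and 3.57%, against 6.06% and 3.58% of all genes, so that the falling share was near the background. The call of Tpm1, a tropomyosin, was lost in 19 of 31 other settings, and with the replicate block its adjusted p was 0.057 against day 0 and 0.0575 against day 5. Tagln2, an actin-bundling protein of the calponin family, was at 192, 137 and 158 RPKM at day 0, 203 to 557 RPKM (median 451) in the middle and 126, 169.7 and 138 at day 5, and its differences were 1.34 ± 0.21 and 1.50 ± 0.21 (adjusted p = 0.000518 and 0.000391). Tpm3, a tropomyosin that lines actin filaments, had differences of 0.81 ± 0.13 and 0.74 ± 0.13. Cnn3, which encodes calponin 3, went the other way, at 25.2, 33.6 and 38.1 RPKM at day 0, 4.25 to 22.8 RPKM (median 14.3) in the middle and 41.7, 37.3 and 31.2 at day 5. Its adjusted p against day 0 of 0.0184 became 0.0696 without day 0 replicate 2 and 0.087 without day 0 replicate 3. After median-of-ratios or quantile scaling only 2 of the 28 rose and returned, as without day 5 replicate 1 or day 5 replicate 3, and 3 without day 0 replicate 3 or day 5 replicate 2.

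YAP and TEAD targets went both ways. Of 18 tested, 2 rose and returned (11.1% against 6.06% of all genes) and 1 fell and recovered (5.56% against 3.58%). Against day 0, 6 were higher and 6 lower, beside 14.8% and 14.1% of all genes. Ajuba, a LIM protein of adherens junctions, was at 2.78, 1.35 and 1.54 RPKM at day 0, 2.24 to 30.4 RPKM (median 18.6) in the middle and 1.37, 5.54 and 1.82 at day 5, which overlap in part. Its differences were 2.25 ± 0.49 and 1.93 ± 0.49, and the adjusted p against day 5 of 0.00958 became 0.061 without day 5 replicate 1. Wwc1, the Hippo pathway scaffold KIBRA, had differences of 1.36 ± 0.22 and 0.67 ± 0.22 (adjusted p = 0.000656 and 0.0284), and its adjusted p against day 5 was 0.177 without day 5 replicate 1 and 0.0713 without day 5 replicate 3. Yap1 itself stood 0.04 ± 0.12 from day 0 and 0.24 ± 0.12 from day 5 (adjusted p = 0.812 and 0.137). The familiar targets Ctgf and Cyr61 parted company: Ctgf was higher than day 0 by 1.58 ± 0.45 (adjusted p = 0.0195), Cyr61 was lower (difference -1.66 ± 0.42, adjusted p = 0.0103), and neither was called against day 5. Yap1, Ctgf and Cyr61 were chosen for mention after their values were seen.

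Genes of glutathione and NADPH metabolism, many of them targets of NRF2, the factor that answers oxidative stress, were mostly higher than day 0. Of 30 tested, 22 were higher than day 0, 7 higher and 2 lower than day 5, and 7 rose and returned (Gclc, Txnrd1, Slc7a11, Gsr, G6pdx, Gsta4 and Gpx2), with none falling. The 7 are 23.3% of the list, against 6.06% of all genes, and 14.8% of all genes were higher than day 0. Against day 5, 23.4% of all genes were higher, so the number higher than day 5 was close to that of genes at large. Gclc, a subunit of the enzyme that starts glutathione synthesis, lost its call in 20 of 31 other settings, with an adjusted p against day 5 of 0.0566 with the replicate block and 0.0712 with the mouse as a factor. The list median was 0.92 from day 0 and 0.19 from day 5, where the median over all genes was 0.15. The number that rose and returned was 4 without day 0 replicate 3. Gpx2, the glutathione peroxidase of the gut epithelium, was at 132, 282 and 189.9 RPKM at day 0, 471 to 989 RPKM (median 721) in the middle and 305, 287 and 237 at day 5. The 9 middle libraries were all above the ends, with differences of 1.86 ± 0.27 (adjusted p = 0.000392) and 1.35 ± 0.27 (adjusted p = 0.00334).

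Enzymes that supply or recycle reducing power were among the 7. G6pdx, glucose-6-phosphate dehydrogenase, which makes NADPH, was at 34.9, 36 and 33.7 RPKM at day 0, 56.3 to 81.9 RPKM (median 73.1) in the middle and 29.1, 43.4 and 38.5 at day 5, with differences of 1.02 ± 0.13 and 0.95 ± 0.13 (adjusted p = 0.000138 and 0.000356). Gsr, glutathione reductase, had differences of 0.84 ± 0.13 and 0.99 ± 0.13 (adjusted p = 0.000546 and 0.00029), and Txnrd1, thioredoxin reductase 1, of 0.63 ± 0.14 and 0.66 ± 0.14. Slc7a11, the cystine importer, was at 0.76, 1.64 and 0.921 RPKM at day 0, 2.24 to 11.1 RPKM (median 3.45) in the middle and 0.415, 1.3 and 0.376 at day 5. Its call against day 0 (adjusted p = 0.011) was lost without day 0 replicate 1 (0.0526) or day 0 replicate 3 (0.054). Nqo1, the textbook NRF2 target, was higher than day 0 by 1.87 ± 0.28 (adjusted p = 0.00046) but stood only 0.38 ± 0.28 above day 5 (adjusted p = 0.298). Gsr, Txnrd1 and Nqo1 were chosen for mention after their values were seen.

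The 12 genes that fell and recovered most were taken in the same way from 112 genes, again on the condition that middle and end values did not overlap. They include Olfm4 and Itln1, which stem and secretory cells of the crypt make, and Slc16a3, Bnip3 and Ndrg1, which low oxygen induces. Ctrb1, which encodes the digestive protease precursor chymotrypsinogen B, was at 50, 58.1 and 25.3 RPKM at day 0, 0.308 to 22.4 RPKM (median 2.44) in the middle and 97.6, 108 and 91.4 at day 5. Its lowest end library was just above its highest middle library, and its differences were -3.23 ± 0.66 (adjusted p = 0.00318) and -4.45 ± 0.66 (adjusted p = 0.000661). Itln1, the Paneth and goblet cell lectin intelectin-1, was at 394, 673 and 433 RPKM at day 0, 19.1 to 172 RPKM (median 59.7) in the middle and 955, 856 and 658 at day 5. It differed by -2.91 ± 0.41 and -3.65 ± 0.41 (adjusted p = 0.000312 and 0.000105). The day means most like those of Ctrb1 over the 5 days were those of Fmc1 (Pearson r = 0.9974), Sirt3 (0.9953), Grina (0.9909), Itln1 (0.9901) and Dand5 (0.9883).

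Olfm4, a secreted glycoprotein of crypt base stem cells, was at 125, 106 and 139.8 RPKM at day 0, 0.783 to 71.3 RPKM (median 22.7) in the middle and 577, 407 and 355 at day 5. Day means were 5.09 ± 4.19 at day 1, 27.3 ± 28.2 at day 2 and 57.9 ± 15.7 at day 3 (SD, n = 3). Its differences were -2.92 ± 0.69 (adjusted p = 0.00709) and -4.74 ± 0.69 (adjusted p = 0.000568), and with day 1 left out the adjusted p against day 0 was 0.0557. Lgr5, the R-spondin receptor of the same cells, was at 1.33, 28.3 and 32 RPKM at day 0, 0.11 to 2.64 RPKM (median 0.874) in the middle and 4.15, 5.85 and 5.43 at day 5. Day 0 replicate 1 lay inside the middle range, and the call against day 5 (adjusted p = 0.0497) was lost in 20 of 31 other settings, the replicate block among them (0.0583), with the highest adjusted p among single libraries left out, 0.135, without day 5 replicate 2. Of 21 tested stem cell genes, Olfm4 and Lgr5 alone fell and recovered (9.52%, against 3.58% of all genes), and 7 were lower than day 0 (against 14.1%). In bulk RNA, fewer cells of a type and less RNA in each cell cannot be told apart. Of 13 Wnt targets, 1 was called against both ends, which was Lgr5 again (7.69%, against 3.58% of all genes). Of 13 Notch pathway genes, 1 was called, Hes1, the repressor that Notch induces (7.69%, against the same 3.58%). Hes1 was at 59.5, 68.4 and 48.6 RPKM at day 0, 17.5 to 30.8 RPKM (median 25) in the middle and 33, 42.1 and 39.9 at day 5. Its differences were -1.22 ± 0.15 and -0.62 ± 0.15 (adjusted p = 0.000102 and 0.00729).

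The remaining genes of the 12 include transport and metabolic genes. Ttr, the carrier of thyroid hormone and retinol-binding protein, was at 55.7, 30.6 and 40 RPKM at day 0, 0.729 to 3.29 RPKM (median 1.74) in the middle and 10.1, 8.28 and 9.42 at day 5. It recovered in part, since day 5 was still -2.03 ± 0.29 from day 0 (adjusted p = 0.000472). Pipox, a peroxisomal oxidase of sarcosine and pipecolate, had differences of -2.67 ± 0.30 and -1.79 ± 0.30, and Coq8a, a kinase-like protein of coenzyme Q synthesis, of -2.05 ± 0.37 and -2.20 ± 0.37. Akr1c14, an aldo-keto reductase, had differences of -1.88 ± 0.47 and -3.10 ± 0.47, opposite in sign to its relative Akr1b8 among the rising genes. Pbld1 had differences of -2.40 ± 0.31 and -2.49 ± 0.31. Clec2e, a C-type lectin of the gut epithelium, had differences of -2.02 ± 0.46 and -2.21 ± 0.46, and its adjusted p against day 0 of 0.00545 became 0.0567 among the DNase-treated libraries alone. The other 11 genes stayed called against both ends in those libraries.

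The hypoxia and glycolysis genes had the largest share of any list called against both ends in 1 direction. Low oxygen stabilises hypoxia-inducible factors, which raise glycolysis, mitophagy and the prolyl hydroxylases that in turn limit the response. Of 29 tested members, 14 fell and recovered (48.3%, against 3.58% of all genes) and none rose. Of the 29, 16 were lower than day 0 and 19 lower than day 5, beside 14.1% and 12.6% of all genes. The list median was -0.65 from day 0 and -0.82 from day 5. The 14 were the glycolytic enzymes Aldoa, Eno1, Pfkl and Tpi1, the mitophagy receptors Bnip3 and Bnip3l, the oxygen-sensing hydroxylase Egln1, the kinase Pdk1, which holds pyruvate out of the mitochondrion, the collagen hydroxylases P4ha1 and P4ha2, the histone demethylase Kdm3a, the peptide hormone gene Adm, and Ankrd37 and Ndrg1.

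Bnip3 was at 6.32, 8.02 and 16 RPKM at day 0, 0.389 to 1.51 RPKM (median 0.667) in the middle and 5.98, 9.36 and 7.24 at day 5. Its highest middle library was far below its lowest end library, with differences of -2.48 ± 0.24 (adjusted p = 1.93e-05) and -2.18 ± 0.24 (adjusted p = 8.78e-05). Ankrd37, an ankyrin repeat gene that hypoxia-inducible factor 1 induces, was at 6.53, 10.9 and 17.9 RPKM at day 0, 1.37 to 4.56 RPKM (median 2.19) in the middle and 13.1, 35.9 and 28.9 at day 5. Ndrg1, a stress-responsive gene, was at 66.3, 79.4 and 117 RPKM at day 0, 11.9 to 62.9 RPKM (median 25.5) in the middle and 130.1, 139 and 174 at day 5, so that its groups nearly touched. Slc16a3, which encodes the lactate exporter MCT4, is a known hypoxia target outside the list and was at 6.51, 20.5 and 54.1 RPKM at day 0, 0.889 to 4.77 RPKM (median 1.61) in the middle and 29.5, 66.9 and 60 at day 5.

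Kdm3a and P4ha1 belong to the enzymes that use oxygen as a substrate. Kdm3a was at 20, 27.2 and 31.6 RPKM at day 0, 5.79 to 8.86 RPKM (median 6.45) in the middle and 13.1, 22.3 and 22.3 at day 5, with differences of -1.78 ± 0.17 and -1.33 ± 0.17 (adjusted p = 2.05e-05 and 0.000277). P4ha1 was at 2.5, 6.72 and 12.7 RPKM at day 0, 0.788 to 2.1 RPKM (median 1.5) in the middle and 3.32, 8.46 and 7.31 at day 5, with differences of -1.55 ± 0.33 and -1.51 ± 0.33 (adjusted p = 0.00387 and 0.00489). Pdk1 had differences of -1.37 ± 0.23 and -1.35 ± 0.23. In the promoter windows of 12 of the 14 genes, 7 of 19 windows held ACGTG (36.8%, against 26.1% of all), among them the Bnip3, Ankrd37 and P4ha1 windows printed above. GCGTG was in 12 of the 19 (63.2%, against 51.5% of all), and no difference between these shares was tested.

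The list did not move as 1 block. Slc2a1, the glucose transporter, stood 0.15 ± 0.32 from day 0 and -0.38 ± 0.32 from day 5 (adjusted p = 0.743 and 0.361). Ldha, lactate dehydrogenase, was lower than day 5 (difference -0.78 ± 0.16, adjusted p = 0.00358) but stood -0.05 ± 0.16 from day 0 (adjusted p = 0.841). Vegfa, the angiogenic factor, was lower than day 0 (difference -1.66 ± 0.49, adjusted p = 0.0227) but not called against day 5 (adjusted p = 0.183). Car9, a carbonic anhydrase, was called against day 5 only (difference -1.81 ± 0.32, adjusted p = 0.00167). Kdm3a, Pdk1, Slc2a1, Ldha, Vegfa and Car9 were chosen for mention after their values were seen.

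The list count was 7 without day 0 replicate 3, and 10 without day 5 replicate 2 or without day 5 replicate 3. The 7 that were called whichever 1 library was left out were Bnip3, Ankrd37, Ndrg1, Adm, Pdk1, P4ha1 and Kdm3a. Without day 0 replicate 3 the adjusted p against day 0 was 0.105 for Aldoa, 0.137 for Eno1, 0.177 for Pfkl, 0.203 for Tpi1, 0.0906 for Bnip3l, 0.113 for Egln1 and 0.313 for P4ha2. The count was 15 among DNase-treated libraries, 14 after median-of-ratios rescaling, 16 after quantile normalization and 7 with day 3 alone as the middle.

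**Figure D4:**
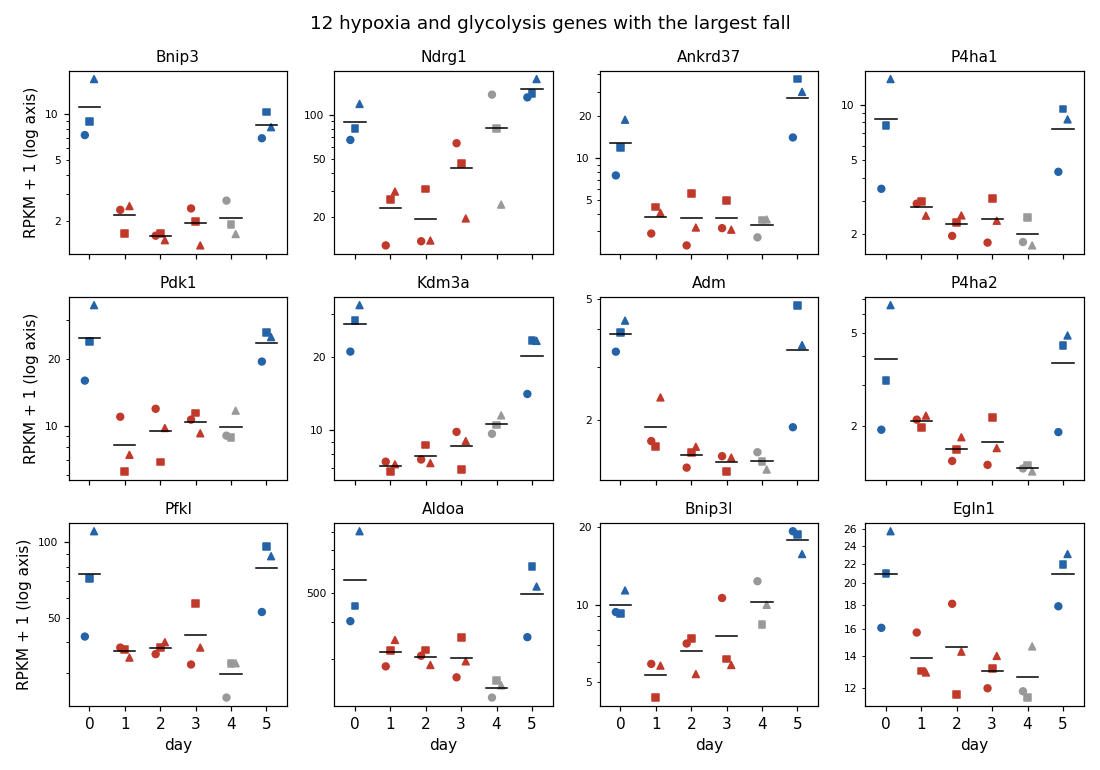
RPKM + 1 on a log axis (y axis) by day (x axis) for the 12 hypoxia and glycolysis genes with the largest fall against both ends, with symbols, colours and bars defined as for the 12 rising genes. Bnip3 stays at 1.51 RPKM or less in the 9 middle libraries, and its day 4 symbols, in grey, are at 0.648 to 1.73 RPKM against 5.98 to 9.36 at day 5.

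At day 4, after Wnt3a-conditioned medium and Y-27632 had been taken out, many of these genes had not started to recover. The day 4 mean was at or below the middle mean in 8 of the 14, against 27 of all 396 genes that fell and recovered (6.82%) and 3 of the 6 enteroendocrine genes described next. The 8 were Aldoa, Eno1, Pfkl, Egln1, Ankrd37, Adm, P4ha1 and P4ha2. Ankrd37 was at 1.71, 2.61 and 2.64 RPKM in the 3 day 4 libraries, against 13.1, 35.9 and 28.9 at day 5, and P4ha1 was at 0.801, 1.44 and 0.727 RPKM, against 3.32, 8.46 and 7.31. Ndrg1 was different, at 136, 79.4 and 23.4 RPKM at day 4, with replicates 1 and 2 above its middle range. Day 4 entered no test, and its difference from day 5 was not tested.

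Some enteroendocrine markers also fell and recovered, with calls that rested on single libraries. Of 19 tested, 6 fell and recovered (Chgb, Gip, Sst, Ghrl, Tac1 and Pcsk1), 10 were lower than day 0 and 6 lower than day 5, and none was higher. Of all genes 3.58% fell and recovered, 14.1% were lower than day 0 and 12.6% lower than day 5. The day 4 mean was at or below the middle mean in 3 of the 6. Pcsk1, a prohormone convertase, lost its call against day 5 with the replicate block (adjusted p = 0.0579) and with the mouse as a factor (0.0573). Sst, the gene of the hormone somatostatin, was at 23.6, 3.46 and 56.6 RPKM at day 0, 0 to 8.14 RPKM (median 1.22) in the middle and 11.7, 6.4 and 11.8 at day 5, and the ranges overlapped. Gip, the incretin gene, was at 58.5, 9.36 and 73 RPKM at day 0, 3.85 to 18.8 RPKM (median 9.83) in the middle and 73, 75.1 and 77.9 at day 5. Its adjusted p against day 0 of 0.0184 was 0.0988 without day 0 replicate 1, 0.134 without day 0 replicate 3 and 0.141 among DNase-treated libraries. The adjusted p of Sst against day 5 of 0.0211 became 0.0838 when replicate 1 of day 5 was left out and 0.0752 when replicate 3 was. The list count was 2 when replicate 1 or 3 of day 0, or replicate 1 or 2 of day 5, was left out, 3 when replicate 3 of day 5 was, and 1 among DNase-treated libraries. The summed RPKM of the 25 markers was 142 to 449 at day 0, 113 to 264 in the middle and 268 to 330 at day 5.

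Other lists changed mainly against 1 end. Growth and division genes stood near day 0 and above day 5. Of 30 genes of G2 and mitosis, 29 were higher than day 5 (against 23.4% of all genes), 2 were lower than day 0 and none was called against both ends in 1 direction. Mki67, a marker of cycling cells, stood 1.12 ± 0.26 above day 5 (adjusted p = 0.00653) and -0.66 ± 0.26 from day 0 (adjusted p = 0.0722). Of 26 S phase genes, 21 were higher than day 5 and none differed from day 0 by the test. Of 29 ribosome biogenesis genes, 28 were higher than day 5 and 4 rose and returned (Nop10, Bop1, Ddx21 and Ebna1bp2), or 13.8% against 6.06% of all genes. After median-of-ratios rescaling 29, 19 and 26 genes of these 3 lists were higher than day 5. Leaving out day 0 replicate 1 ended the calls of Ddx21 (adjusted p = 0.134 against day 0) and Ebna1bp2 (0.141), and leaving out day 5 replicate 3 that of Nop10 (0.133 against day 5). Bop1, a processing factor of the large subunit, was at 18.9, 27.7 and 27.6 RPKM at day 0, 32 to 55 RPKM (median 50.8) in the middle and 26.6, 30.9 and 30.5 at day 5, with differences of 0.94 ± 0.16 and 0.68 ± 0.16 and no overlap.

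The markers of mature cells stood below day 5. Of 18 Paneth cell genes, 15 were lower than day 5 (against 12.6% of all genes), and 2 fell and recovered, Itln1 and Habp2 (11.1%, against 3.58%). Habp2 was at most 0.486 RPKM in the middle, and its call against day 0 (adjusted p = 0.0104) was lost without day 0 replicate 3 (0.0598). Lyz1, the lysozyme of Paneth cells, was lower than day 5 (difference -3.18 ± 0.52, adjusted p = 0.00116) and stood -0.44 ± 0.52 from day 0 (adjusted p = 0.551). Of 18 goblet cell genes, 15 were lower than day 5, 6 were higher than day 0 (against 14.8% of all genes) and 1 rose and returned, the potassium channel gene Kcnk6 (5.56%, near the 6.06% of all genes). Muc2, the main gel-forming mucin, was lower than day 5 (difference -1.87 ± 0.49, adjusted p = 0.0114). Of 30 enterocyte genes, 11 were higher than day 0 (against 14.8% of all genes), 18 were lower than day 5 and 5 of them were both. The 1 that fell and recovered (3.33%, near the 3.58% of all genes) was the peptidase gene Dpp4 (differences -1.19 ± 0.35 and -1.06 ± 0.35, adjusted p = 0.0226 and 0.032). Kcnk6 lost its call without any 1 of 6 libraries and Dpp4 without any 1 of 5, with adjusted p against day 5 of 0.147 and 0.11 without day 5 replicate 1. Fabp1, the fatty acid-binding protein of enterocytes, was higher than day 0 by 2.19 ± 0.48 and stood -2.33 ± 0.48 from day 5, so that it climbed across the course (adjusted p = 0.00474 and 0.00365). Of the 2 tuft cell genes tested, neither was called against both ends. Mki67, Lyz1, Muc2 and Fabp1 were chosen for mention after their values were seen.

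Many immediate early genes were lower than day 0. Of 22 immediate early and AP-1 genes, 12 were lower than day 0 (against 14.1% of all genes) and none was lower than day 5. Fosl1, an AP-1 subunit of spreading and wounded epithelium, was the 1 that rose and returned (4.55% of the list, below the 6.06% of all genes). It was at 1.82, 0.268 and 0.14 RPKM at day 0, 0.841 to 10.9 RPKM (median 4.11) in the middle and 0.135, 0.709 and 0.209 at day 5. Its adjusted p against day 0 of 0.0116 became 0.0633 when replicate 2 of day 0 was left out and 0.0735 when replicate 3 was. The metal-binding Mt1 and Mt2 were lower than day 0 (differences -3.01 ± 0.24 and -4.12 ± 0.29, adjusted p = 7.56e-06 and 3.55e-06) and stood -0.50 ± 0.24 and -0.73 ± 0.29 from day 5 (adjusted p = 0.117 and 0.0679), and none of the 6 tested metallothionein list genes was called against both ends.

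The remaining lists held at most 2 genes each that were called against both ends. Heat shock genes had 2 of 13 that rose and returned (15.4%, against 6.06% of all genes), Hsph1 and Chordc1, and p53 targets 2 of 21 (9.52%), Ccng1 and Bax. None of these 4 calls held without day 0 replicate 3, where the adjusted p against day 0 was 0.112, 0.147, 0.255 and 0.06 in that order, and neither list had a gene called against both ends after quantile normalization. ATF4 targets, which answer amino acid stress, had 1 of 24, which was Slc7a11 again (4.17%, below the 6.06% of all genes). Ribosomal protein genes had 1 of 34, Rpl27 (2.94%, also below it), with medians of -0.26 and 0.03. None was called against both ends among 21 genes of EGF ligands and ERK feedback, 25 of sterol synthesis, 15 interferon-stimulated and MHC class I genes and 4 nuclear long noncoding RNAs. Within the EGF list, Areg, which encodes the ligand amphiregulin, was higher than day 5 by 1.94 ± 0.66 (adjusted p = 0.0351). It stood 1.22 ± 0.66 from day 0 (adjusted p = 0.179). Its adjusted p against day 5 became 0.156 without day 5 replicate 1 and 0.113 without day 5 replicate 3. Summed RPKM of the nuclear RNAs, a sign of RNA quality or of DNA carried over, was 120 to 143 at day 0, 49.4 to 203 in the middle and 48.7 to 105 at day 5, and its part in the results was not tested.

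**Figure D5:**
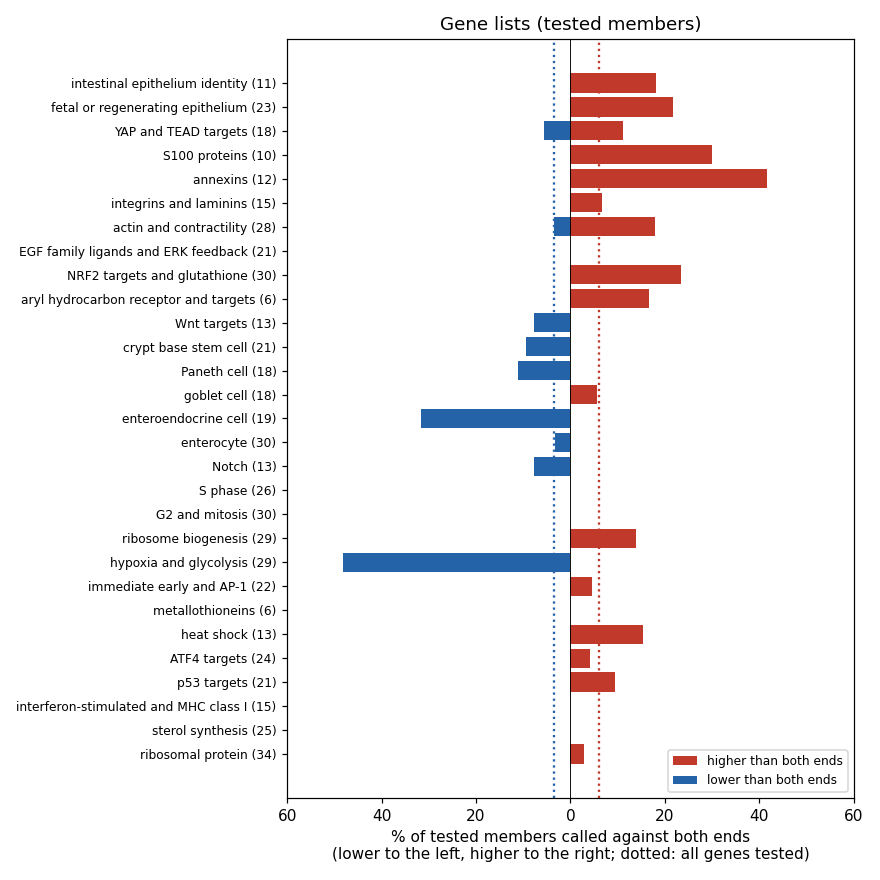
Share of tested members (x axis, %) called higher than both ends (red, to the right) or lower than both ends (blue, to the left) for each list with at least 5 tested members (y axis, number tested in brackets); dotted lines mark 6.06% and 3.58%, the shares of all genes tested. Hypoxia and glycolysis reach 48.3% to the left, with 14 of 29 genes.

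Preparation with or without DNase was compared within the same model. A term for a different middle-against-ends contrast in the untreated replicates was called by limma for 0 of 11065 genes. At an unadjusted p under 0.05 it picked 689 of the 11065, which included 68 of the 671 and 73 of the 396. That is a larger share of both sets than of all genes, and the largest share was among the falling genes. Among DNase-treated libraries alone 620 genes rose and returned and 454 fell and recovered. Every untreated library was of mouse 1, and treated mouse 1 libraries were present at days 1 and 2 only. At days 0, 3 and 5 the effects of DNase and of the mouse cannot be told apart.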

How the data were processed

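RNA-seq of mouse intestinal organoids was used as the authors deposited it, as RPKM per gene and library in 1 table. Per the submitters' processing notes, genome build mm10 was used with STAR 2.5.2b, edgeR 3.20.5 and bcl2fastq 2.17. Which annotation was counted, whether strand was used and how reads with several matches were treated is not given in the sources used here. RPKM are scaled to library size, so a gene's level is relative to the rest of its library.

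The table held 24116 genes, and the 11065 with at least 1 RPKM in at least 3 of the 15 libraries of days 0, 1, 2, 3 and 5 were tested on log2(RPKM + 1) by limma 3.58.1 (R 4.3.3; lmFit, then eBayes with a trend), with 1 coefficient per day. Differences are on that scale, which understates changes of low genes. Tests are two-sided, adjusted by the Benjamini-Hochberg method over all 11065 genes, with calls at an adjusted p under 0.05. Groups came from the sample titles. Nothing in the labels says that libraries of 1 line were separate cultures, so p-values measure only the spread between these libraries.

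The groups compared, the 34 gene lists and the rule for named genes were chosen with earlier results of these data known. The rule took the 12 rising and 12 falling genes described in the text and up to 4 called members of each list. Depth was recovered from steps in the low values. The code was tested on simulated data. Promoter windows came from RefSeq and covered 8795 of the tested genes. The alternatives were other pseudocounts, filters, scalings, sets of libraries and middle days, a replicate block, the mouse as a factor and array weights.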

Additional observations from a re-analysis of the deposited data

How the results depend on the processing

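Counts of called genes were recomputed under 16 alternatives, 3 of them chosen after seeing the data (day 1 alone or day 3 alone as the middle, and leaving out day 0 replicate 1 with day 3 replicate 1), and with each of 15 libraries left out. Of 160 counts under the 16 alternatives, 131 stayed within 1.5 times the value reported and 29 did not. Among genes named by the rule or called on a list, no end contrast changed direction where it was called as reported or in the alternative. Changes of sign between uncalled contrasts were not counted, and the other genes chosen after their values were seen were not checked. With a filter at 5 RPKM, 928 genes were lower by the mean contrast, 812 were lower than day 0, and 26 of the genes called against both ends were lower at day 5 than at day 0, against 45 as reported, where 72 were higher. With array weights, which gave day 5 replicate 2 a weight of 9.2, the mean contrast called 4058 genes higher and 2668 lower, day 0 gave 3170 and 2978, day 5 gave 4892 and 2715, and both ends gave 1879 and 1173, and of these 713 rose and 894 fell between the ends. With days 2 and 3 as the middle, 1722 genes were higher than day 5, 410 rose and 251 fell against both ends, and 44 of these were higher at day 5 than at day 0. With day 3 alone, those counts were 430 and 410 by the mean contrast, 983 and 956 against day 0, 188 and 307 against day 5, 74 and 89 against both ends, and 9 and 14 between the ends. Without day 0 replicate 1 and day 3 replicate 1, 124 and 76 of the genes called differed between the ends.

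With 1 library left out, the mean contrast called 1694 to 2589 genes higher and 1113 to 1606 lower, day 0 gave 977 to 1795 and 925 to 1615, day 5 gave 1261 to 3092 and 917 to 1609, and both ends gave 394 to 901 and 243 to 495, of which 26 to 125 were higher and 14 to 83 lower at day 5 than at day 0. The replicate numbers paired the libraries in part: by the titles replicates 1 and 3 are of 1 mouse each on every day, while replicate 2 is of mouse 2 or mouse 1. Over 30 pairs with the same number, deviations from day means correlated at -0.519 to 0.745 (median 0.14), with 16 above 0.1, against a median of -0.07 for different numbers, and 8 of 15 libraries correlated best with their own number. With the replicate block, 765 genes rose and returned and 447 fell and recovered, and with the mouse as a factor 727 and 404. Of the genes named as called, Tpm1, Gclc, Lgr5 and Pcsk1 lost a call with both, Bax with the block (0.0502 against day 5) and Kcnk6 with the mouse (0.0682). Of 87 named or listed genes called against both ends, 23 were called in every alternative, 16 in all but day 3 alone, and 48 were lost in others too. The cause of these differences was not tested. An RPKM of 1 stands for few reads in a short gene, so that calls on the lowest genes are the least precise, and 3 libraries a day limit all of them.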
